A study of Mus musculus with 6 samples.

Results

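Activin and inhibin subunits, their antagonists and their receptors were measured in sorted endothelial cells of mouse skin, with and without APJ, which is the apelin receptor and the product of Aplnr. The family was taken as 10 genes, and every array probe whose transcript accession maps to one of them was described. That gave 12 probes for all 10 genes, out of 55681 probes and 20018 named genes on the array. The set was chosen from gene names, but with the knockout-minus-wild-type differences of these arrays already known, Inhbb being among the genes with a large one. Differences of its members are therefore descriptions. The calls of the fit across all features are given for them too, but are no independent test, since this contrast was known when the set was chosen.

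Activins are secreted dimers of β subunits, and inhibins pair an α subunit with a β subunit. An activin binds a type II receptor, which recruits a type I receptor, and the complex phosphorylates Smad2 and Smad3 so that they enter the nucleus with Smad4. Follistatins trap activin outside the cell, and the co-receptor betaglycan holds inhibin on the type II receptor and so blocks activin. In skin the system is known for its part in hair follicle formation and wound repair.

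RNA of 3 APJ knockout samples and 3 wild-type samples, all C57Bl/6J, was hybridised to 6 one-colour Agilent arrays. The labels number 1 mouse per sample, give no age, and do not say how Aplnr was deleted or which surface markers were used for the sort. The names of the scanner files carry an embryonic stage that no label states. The genotypes were compared to see how expression differs without APJ. No label says whether the 6 samples came from separate litters or sorts, so a p-value here measures the spread among them and nothing wider. With so few arrays, precision is limited by their number.

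A level is the log2 processed intensity of a probe minus the 75th percentile of its array, so that 0 is the intensity of the probe at that percentile. Between 50.36% and 58.01% of probes were well above background on an array, by the scanner software's own call. The Aplnr probe read 1.89, 1.71 and 2.26 in APJ knockout samples 1 to 3, against 3.35, 3.77 and 3.82 in wild type samples 1 to 3, a knockout level of 30.9% of wild type (limma adjusted p = 0.0237, and 0.0791 in the fit blocked on replicate number). The limma adjusted p of Aplnr was also above 0.05 with no filter on dim probes (0.186). The same held without any 1 array except APJ knockout sample 3 (limma adjusted p = 0.0507 to 0.148). Whether the Aplnr probe lies in the deleted part of the gene is not known here. All 10 endothelial markers, Pecam1, Cdh5 and Kdr among them, were well above background on all 6 arrays, and their summed level overlapped between the groups (833 to 905 times the 75th percentile in the knockout and 822 to 902 times in wild type). In sorted samples of this kind, fewer cells of a type and less RNA per cell cannot be told apart.

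The sequence before the start of Inhbb is shown because no other member had a large difference with clear signal. It covers the 250 bases upstream of the RefSeq start on the minus strand (GRCm38.p6, chr1:119422249-119422498), from RefSeq, and 68% of its bases are G or C. The capitals mark the 1 match found to a GC box, read on the opposite strand.

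Inhbb: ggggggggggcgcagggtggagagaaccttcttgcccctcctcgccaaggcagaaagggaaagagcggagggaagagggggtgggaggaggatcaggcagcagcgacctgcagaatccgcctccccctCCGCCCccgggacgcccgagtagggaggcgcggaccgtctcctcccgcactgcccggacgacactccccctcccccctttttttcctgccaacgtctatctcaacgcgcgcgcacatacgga

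Upstream sequences were at hand for 8 of the 10 genes, as 9 sequences because Acvr1c has a pair of starts. Each was searched on both strands for 5 motifs. The short Smad-binding element CAGAC was in the windows of Inha, Acvr2a, Acvr2b and Fstl3 and not in that of Inhbb, and it was in 42.2% of all 32851 upstream windows of that length. The GC box GGGCGG was in 6 of the 9 windows and in 32.7% of all. The hypoxia response core ACGTG was in those of Fstl3 and Acvr1b and in 16.6% of all. Neither the palindromic Smad element GTCTAGAC (0.167% of all) nor the cyclic AMP element TGACGTCA (1.55% of all) was in any of the 9. A match is a run of letters and not a site in use, and a missing match speaks only for these windows.

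Among the ligand subunits, the data show one large difference, that of Inhbb on chromosome 1, which encodes the βB subunit of activin B and inhibin B. Its level was -0.79, -1.03 and -1.77 in APJ knockout samples 1 to 3, against -3.59, -3.70 and -4.05 in wild type samples 1 to 3. Every knockout sample lay above every wild-type sample, with a gap of 1.82 between the lowest knockout and the highest wild-type value.

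The means were -1.20 ± 0.51 in the knockout and -3.78 ± 0.24 in wild type (SD, n = 3 each), a difference of 2.58 ± 0.27 on the log2 scale (SE of the fit), or 5.99-fold. The probe was well above background on all 6 arrays. Its processed intensity before scaling was 177.5, 127.3 and 117 in the knockout, against 23.94, 19.33 and 22.77 in wild type, so the wild-type signal was a dim one.

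The 6 arrays lay on 2 slides, which were also scanned in separate sessions. Slide 1 held samples 1 and 2 of each genotype and slide 2 held sample 3 of each. The difference in Inhbb was 2.73 within slide 1 and 2.28 within slide 2. Both samples on slide 2 had the lowest Inhbb level of their genotype.

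Inhba on chromosome 13, the βA subunit of activin A and inhibin A, was well above background on 0 of 6 arrays. Its probe read -6.79, -6.68 and -6.69 in APJ knockout samples and -6.90, -6.51 and -7.33 in wild-type samples. The groups overlapped, and no difference is given where neither genotype is well above background.

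Inha on chromosome 1, the α subunit that turns a β subunit into an inhibin, was near background. Its level was -4.29, -5.16 and -4.37 in the knockout, where samples 1 and 3 were well above background, against -4.83, -5.59 and -5.18 in wild type, where no sample was. The groups overlapped. The measured means were -4.60 ± 0.48 in the knockout and -5.20 ± 0.38 in wild type (SD, n = 3 each), a difference of 0.59. With each wild-type value replaced by the lowest signal called well above background on its array, the ratio was 1.11-fold. That ratio is no lower bound, since the knockout mean includes the value of -5.16, which was not well above background. It also leaves out the spread between arrays. With normexp background correction the difference was 0.06 at an offset of 50 and 0.32 at an offset of 1.

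**Figure D1:**
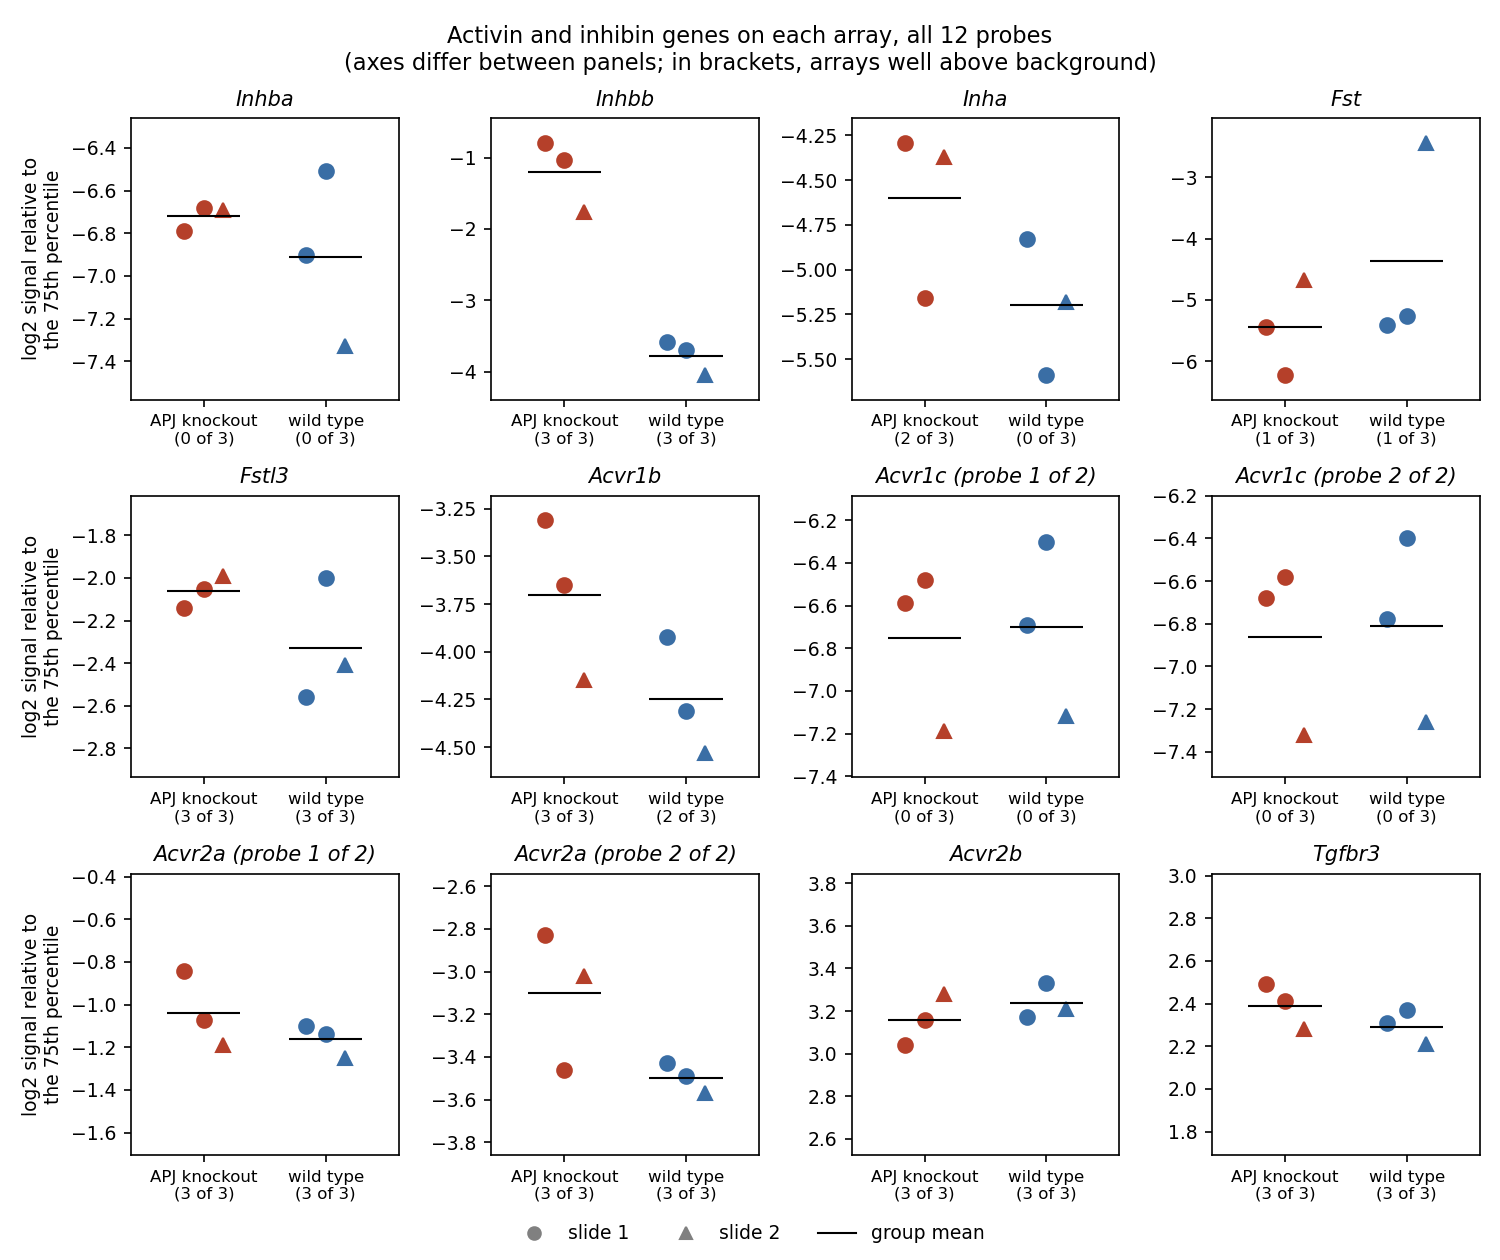
Level of each of the 12 probes of the 10 genes on each array (log2 signal relative to the array's 75th percentile), APJ knockout left and wild type right, with circles for slide 1, triangles for slide 2 and a line at each group mean; brackets give the number of arrays on which the probe was well above background. Only the Inhbb panel has groups that do not overlap, with knockout samples between -1.77 and -0.79 and wild-type samples between -4.05 and -3.59.

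Of the secreted antagonists, Fst on chromosome 13, which encodes follistatin, was measured on few arrays. It read -5.44, -6.23 and -4.67 in APJ knockout samples, against -5.41, -5.26 and -2.43 in wild-type samples. It was well above background on 1 array of each genotype, both on slide 2. Wild type sample 3 stood far above the other arrays, and the remaining values of both genotypes overlapped.

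The means were -5.45 ± 0.78 in the knockout and -4.36 ± 1.68 in wild type (SD, n = 3 each), a difference of -1.08 that is smaller than the wild-type SD. Without wild type sample 3 the difference was -0.12. Keratinocyte markers were also highest in that sample: the summed level of 10 of 10 listed markers was 11.4, 11 and 10.4 in APJ knockout samples 1 to 3, against 10.3, 16.8 and 35.9 in wild type samples 1 to 3. Each of them had a lower mean in the knockout, with a median difference of -1.30, all were well above background on at least 1 array, and 6 were so on all 6. The part of keratinocyte RNA in the Fst signal was not tested.

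Fstl3 on chromosome 10, a follistatin-like protein that also neutralises activin, was well above background on all 6 arrays. Its level was -2.14, -2.05 and -1.99 in the knockout, against -2.56, -2.00 and -2.41 in wild type. Wild type sample 2 lay among the knockout samples, so the groups overlapped. The means of -2.06 ± 0.08 in the knockout and -2.33 ± 0.29 in wild type (SD, n = 3 each) differ by 0.27, less than the wild-type SD. The difference was 0.19 within slide 1 and 0.42 within slide 2.

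**Figure D2:**
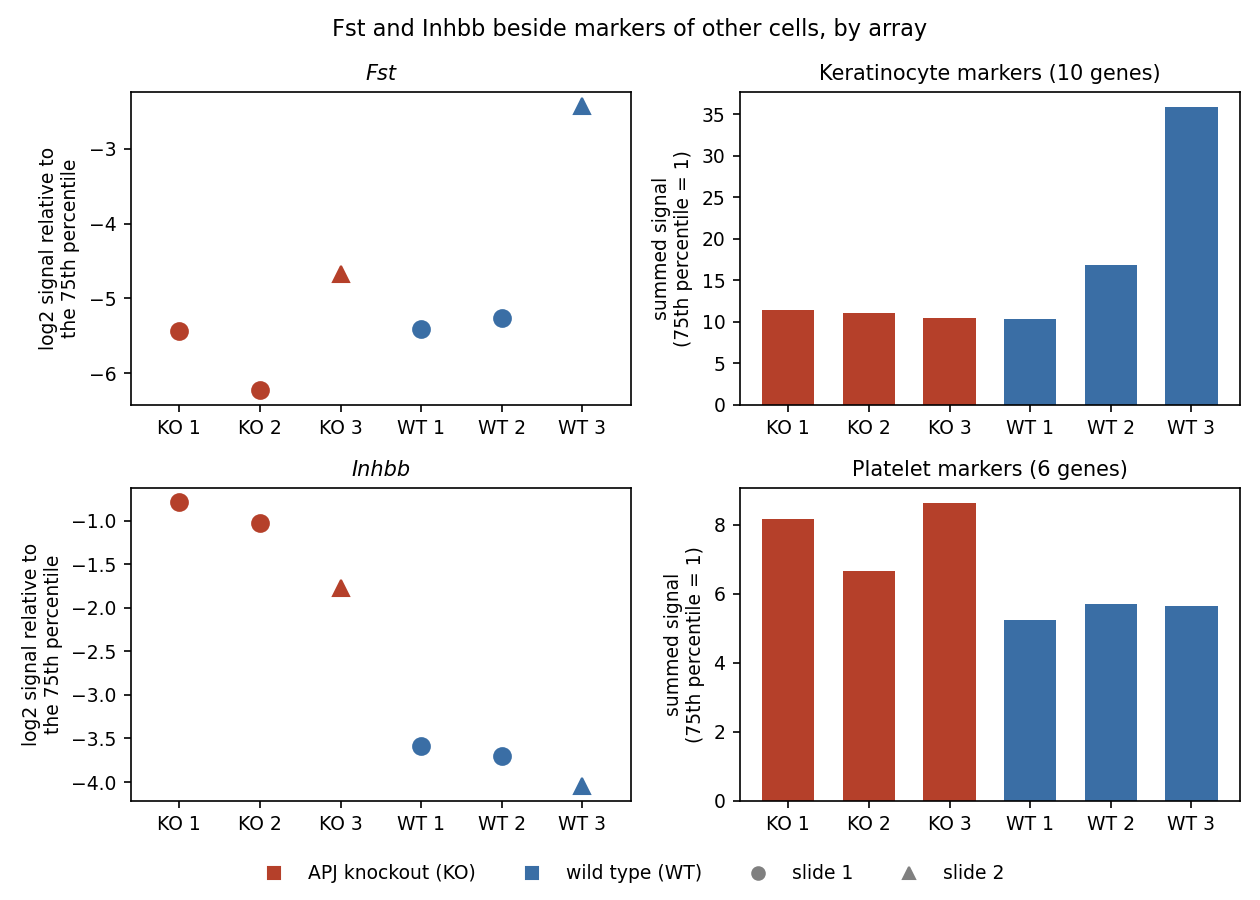
Levels of Fst and Inhbb (left, log2 signal relative to the array's 75th percentile; circles for slide 1, triangles for slide 2) beside the summed signal of keratinocyte and platelet markers (right, bars, in units of the 75th percentile) on each array, APJ knockout in red and wild type in blue. Wild type 3 is highest for Fst at -2.43 and for keratinocyte markers at 35.9, and platelet markers lie between 6.67 and 8.63 in the knockout and between 5.25 and 5.70 in wild type.

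Both type II receptors, which bind the ligand first, were well above background in all samples and overlapped between genotypes. Acvr2b on chromosome 9 read 3.04, 3.16 and 3.28 in APJ knockout samples, against 3.17, 3.33 and 3.21 in wild-type samples. The groups overlapped, and the means of 3.16 ± 0.12 in the knockout and 3.24 ± 0.08 in wild type (SD, n = 3 each) differ by -0.08. The sign turned between the slides, with -0.15 within slide 1 and 0.07 within slide 2.

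Acvr2a on chromosome 2, the other type II receptor, had a pair of probes. The brighter probe read -0.84, -1.07 and -1.19 in the knockout, against -1.10, -1.14 and -1.25 in wild type. The second probe read -2.83, -3.46 and -3.02 in the knockout, against -3.43, -3.49 and -3.57 in wild type. On both probes 2 of 3 knockout samples lay above all wild-type samples and the third among them. The differences were 0.13 and 0.39, so the probes pointed the same way and differed in size.

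Among the type I receptors, Acvr1b on chromosome 15, which encodes ALK4, the main type I receptor of activin, was dim. Its level was -3.31, -3.65 and -4.15 in APJ knockout samples, against -3.92, -4.31 and -4.53 in wild-type samples. Knockout samples 1 and 2 lay above all wild-type samples, and knockout sample 3 lay among them. The means of -3.70 ± 0.43 in the knockout and -4.25 ± 0.31 in wild type (SD, n = 3 each) differ by 0.55. The probe was well above background on 3 knockout and 2 wild-type arrays, so it passed the filter on dim probes through the knockout group.

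Acvr1c on chromosome 2, which encodes the type I receptor ALK7 and also serves nodal, was well above background on 0 of 6 arrays by either probe. The probes read between -7.32 and -6.48 in the knockout and between -7.26 and -6.30 in wild type. The lowest values on both probes were those of the slide 2 arrays, in both genotypes, and no difference is given.

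Tgfbr3 on chromosome 5, which encodes betaglycan, was well above background on all 6 arrays. It read 2.49, 2.41 and 2.28 in APJ knockout samples, against 2.31, 2.37 and 2.21 in wild-type samples. The groups overlapped, and the means of 2.39 ± 0.11 in the knockout and 2.29 ± 0.08 in wild type (SD, n = 3 each) differ by 0.10.

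The 24235 genes and unnamed probes that were well above background on every array of at least 1 genotype were fitted together with limma, and a call is an adjusted p at or below 0.05. Of the 10 members 6 entered that fit. Inhba, Inha, Fst and Acvr1c did not. Inhbb was called higher, the only member called, where 0.367% of all features were called higher. No member was called lower by limma, where 0.186% of all features were, and no member had an unadjusted p below 0.05 in that direction. Inhbb was also the only member whose knockout samples all lay above its wild-type samples, where 6.37% of all features did so. Nothing is read from these counts, since the set was proposed with this contrast known.

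The call of Inhbb ended in the fit blocked on replicate number, although the difference is the same 2.58 there. It also ended when any 1 array except APJ knockout replicate 3 was left out (differences of 2.38 to 2.68). Without that array the difference was 2.87 and the call stood. With normexp background correction and an offset of 50 the difference was 1.11 and the call ended, and with an offset of 1, an alternative added after seeing the data, it was 2.03 and the call stood. Platelet markers were the one list of other cells whose summed level did not overlap between genotypes in the direction of Inhbb, at 8.16, 6.67 and 8.63 in APJ knockout samples and 5.25, 5.70 and 5.63 in wild-type samples. All 6 platelet markers were well above background on all 6 arrays, with a median difference of 0.38. Their part in the Inhbb signal was not tested. The sums of lymphatic endothelial, macrophage, mural, fibroblast, erythroid and melanocyte or Schwann cell markers overlapped between genotypes. Single markers of some of these lists lay higher in the knockout all the same, in 7 of 7 lymphatic markers (median difference 0.49), 9 of 10 macrophage markers (0.79) and 6 of 6 erythroid markers (0.26). The summed lymphatic level was 573, 631 and 647 in knockout samples 1 to 3, against 530, 563 and 621 in wild type samples 1 to 3, and so higher in the knockout at each number. The part of these cells in the Inhbb signal was not tested. Among the mural and fibroblast markers, Des, Myh11 and Dpt were not well above background in any sample.

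**Figure D3:**
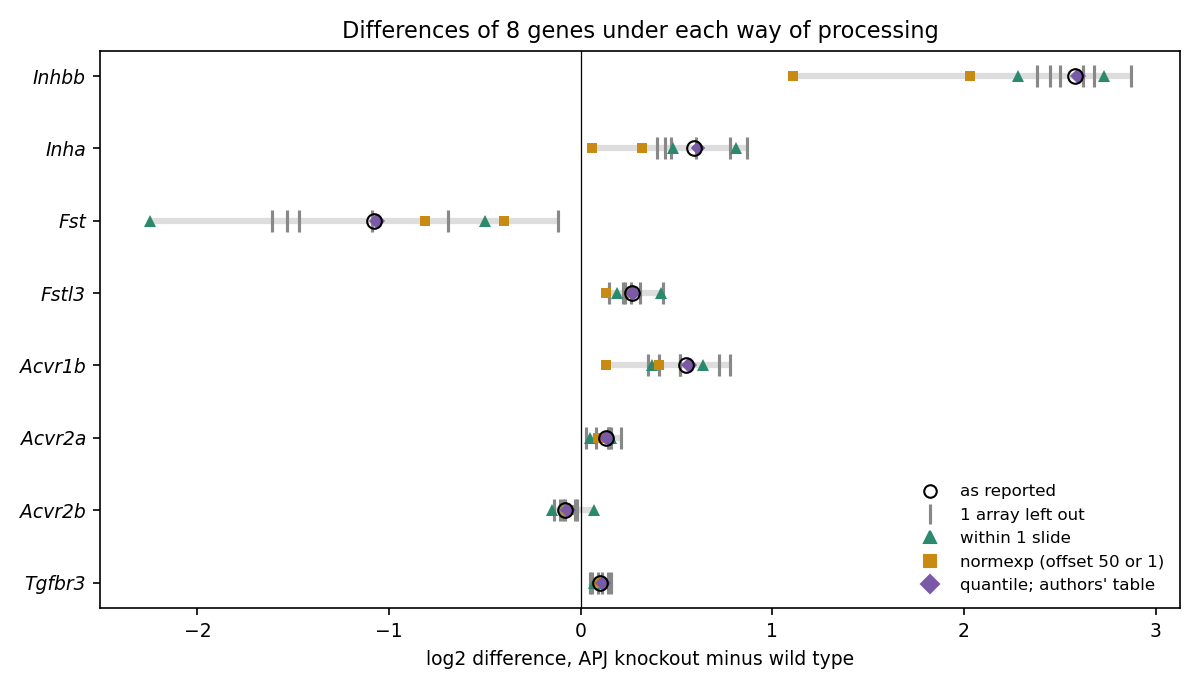
Log2 difference, APJ knockout minus wild type, of the 8 genes with signal on at least 1 array, as reported (open circles), with 1 array left out (ticks), within 1 slide (triangles), with normexp background correction (squares) and from quantile normalization or the authors' value table (diamonds). Inhbb stays above 0 throughout, from 1.11 to 2.87, Fst ranges from -2.25 to -0.12, and Acvr2b is on both sides of 0.

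The genes around the family were read from 5 lists of activin pathway genes, 68 genes in all, of which 56 entered the fit. Tgfbi rose and Pcsk5 fell, and no other listed gene was called by limma in either direction, where 13 had an unadjusted p below 0.05 with a higher level and 2 with a lower one, these included. Over all features, of which 13457 of 24235 have a gene symbol, 4.46% had such a p with a higher level and 3.57% with a lower one. Over the 56 genes 41 differences were above 0, with a median of 0.11, where 43.5% of all features were above 0 with a median of -0.02. The lists were chosen with earlier results of these data known, so nothing is read from these counts.

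Genes known to respond to Smad2 and Smad3 had the highest median of the 5 lists, 0.30 over the 12 fitted of 15, and no difference was below 0, the lowest being that of Ltbp3 at 0.00. This list too was composed with earlier results of these data known, so its median and signs are descriptions. Tgfbi, whose product is a secreted matrix protein, rose to 3.40, 3.33 and 3.53 in APJ knockout samples, against 2.58, 2.62 and 2.65 in wild-type samples. That is a difference of 0.80 ± 0.09 (SE, n = 3 per group, limma adjusted p = 0.0237), with 0.77 within slide 1 and 0.87 within slide 2. It was not called in the fit blocked on replicate number (limma adjusted p = 0.074) or without any 1 array (0.0701 to 0.156), and over all alternatives the adjusted p lay between 0.0167 and 0.249.

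Of the proprotein convertases, the proteases that cut precursors of this family, 6 of 7 were fitted with a median of 0.07, 5 of them above 0. Pcsk5 fell to -1.46, -1.61 and -1.47 in APJ knockout samples, against -0.87, -0.90 and -0.94 in wild-type samples. The difference was -0.61 ± 0.08 (SE, n = 3 per group, limma adjusted p = 0.0456), with -0.65 within slide 1 and -0.54 within slide 2. It was not called in the fit blocked on replicate number (limma adjusted p = 0.0919), with the authors' value table (0.0682), with normexp (0.163 at an offset of 50, 0.0715 at 1) or without any 1 array (0.112 to 0.236). Over all alternatives its adjusted p lay between 0.0339 and 0.388.

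All 21 listed Smad proteins and regulators were fitted, with none called by limma (4 at an unadjusted p below 0.05, all higher), a median of 0.10 and 14 above 0. The inhibitory Smads had the smallest unadjusted p of the list. Smad6 read 0.28, -0.03 and -0.11 in APJ knockout samples, against -0.41, -0.38 and -0.57 in wild-type samples (difference 0.50 ± 0.13, SE, limma adjusted p = 0.245). Smad7 read 1.20, 1.07 and 1.29 in the knockout, against 0.91, 0.56 and 0.70 in wild type (0.47 ± 0.12, limma adjusted p = 0.257). The samples of both genes did not overlap between genotypes, which adds little, since these genes are named for their small p. Over all features 6.37% had every knockout sample above every wild-type sample.

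Of the other receptors and co-receptors 8 of 11 were fitted, with none called by limma (1 higher and 1 lower at an unadjusted p below 0.05), a median of 0 and 4 on each side. Bmpr1b, a type I receptor for bone morphogenetic proteins, read -4.81, -5.02 and -3.98 in APJ knockout samples, against -3.24, -3.50 and -3.02 in wild-type samples (difference -1.35 ± 0.28, SE, limma adjusted p = 0.145). It was well above background on 1 of 3 knockout and 3 of 3 wild-type arrays. It thus entered the fit through wild type, the group where it is high, and its difference is taken against knockout signals that are mostly not well above background. Eng, which encodes the TGF-β co-receptor endoglin, had a difference of 0.27 ± 0.11 (SE, limma adjusted p = 0.604).

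Of the other ligands and antagonists 9 of 14 were fitted, with none called by limma (2 at an unadjusted p below 0.05, both higher), a median of 0.03 and 6 above 0. Gdf1, a ligand that acts through activin receptors, read -0.92, -0.86 and -0.46 in APJ knockout samples, against -1.39, -1.51 and -1.11 in wild-type samples (difference 0.59 ± 0.16, SE, limma adjusted p = 0.294). Wfikkn1, a secreted antagonist of myostatin, differed by 0.51 ± 0.16 (SE, limma adjusted p = 0.378). When slide was fitted as a block, Gdf1, Timp3 and Pcsk6 joined Tgfbi as called higher (limma adjusted p = 0.0326, 0.0323 and 0.0302) and Bmpr1b, with the limit just given, joined Pcsk5 as called lower (0.0323). Timp3, an inhibitor of matrix proteases, and Pcsk6, a convertase, are named after their values were seen.

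**Figure D4:**
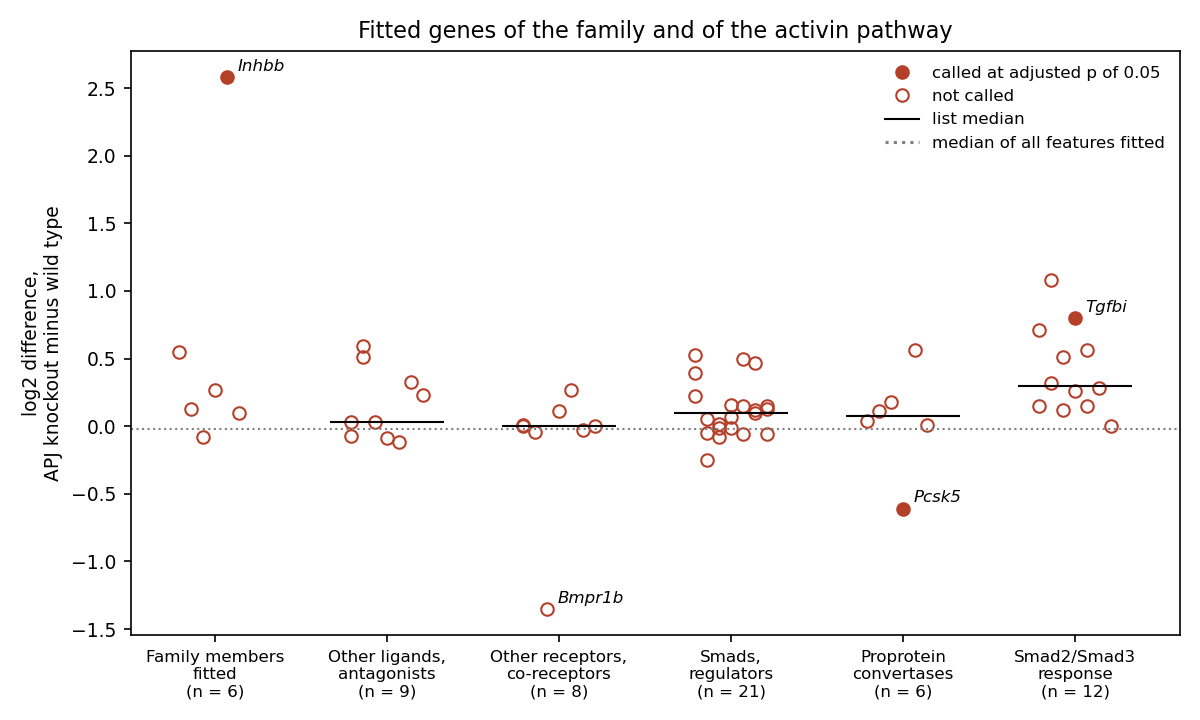
Log2 difference, APJ knockout minus wild type, of the 6 family members fitted and of the 56 other pathway genes fitted, 1 point per gene; filled points were called at an adjusted p of 0.05, lines are medians of the 5 lists and the dotted line is the median of all features fitted (-0.02). Inhbb stands at 2.58, Tgfbi at 0.80 and Pcsk5 at -0.61, and none of the 12 Smad2 and Smad3 response genes lies below 0. The members and the lists were chosen with earlier results of these data known.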

How the data were processed

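The scanner files give a linear fluorescence intensity for each spot. Per the file headers, background subtraction and spatial detrending were done in Agilent Feature Extraction (version 10.7.3.1), without scaling between arrays. In the authors' deposited table each intensity is multiplied by a constant of its array, 2.285 to 3.685, and the sources used here do not give its origin.

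Intensities were taken to log2, the array's 75th percentile over 59305 non-control spots was subtracted, outlier spots (126 to 179 per array) were left out, and spots of a probe were averaged. A gene is represented by its brightest fitted probe. Symbols were matched by RefSeq accession for 47.4% of probes. limma 3.58.1 in R 4.3.3 (lmFit, eBayes, genotype as the only term) was fitted across 24235 features, with two-sided p-values adjusted by Benjamini-Hochberg. These features were well above background on every array of at least 1 genotype and had an unflagged value on all 6 arrays. The fit was also run on simulated data with noise independent between arrays. That run does not cover deviations shared within a slide or a replicate number. Scanner files hold no mean signal, so normexp used the median signal.

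All 10 members are named. Of each pathway list the called genes are named, or else the 2 with the smallest p, and others are marked as named after their values were seen. The members and lists were chosen with earlier results of these data known. Alternatives were normexp, quantile normalization, the authors' table, other filters, each probe alone, slide and replicate blocks, and leaving out each array. Samples of the same number deviated together from their group means (r = 0.23, 0.15 and 0.65 for numbers 1 to 3). Slide 1 samples of unlike number did so at least as much (0.28 and 0.36). The samples of number 3 are those of slide 2, so a shared number and a shared slide cannot be told apart there. Whether the numbers pair the samples is thus not known. The reported fit has no block on replicate number, and the blocked values are given where they change a call.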

Additional observations from a re-analysis of the deposited data

How the results depend on the processing

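Inhbb was called in 7 of 15 alternative fits. The members called higher numbered 0, against 1 as reported, with normexp at an offset of 50, with no filter on dim probes (49224 features adjusted over in place of 24235) and in the fit blocked on replicate number, and 0 to 1 with 1 array left out; 1 or 2 members had an unadjusted p below 0.05 in these limma fits. No alternative called a member lower. Other pathway genes called higher, 1 as reported, numbered 4 with the slide as a block, 0 with the replicate block, 0 with no filter and 0 with 1 array left out (9 to 16 at an unadjusted p below 0.05). Those called lower, 1 as reported, numbered 2 with the slide as a block and 0 to 1 with 1 array left out. They numbered 0 with the replicate block, no filter, the authors' table or normexp at either offset. In all these limma fits 2 or 3 had an unadjusted p below 0.05. The gene called without APJ knockout replicate 3 was Bmpr1b, not Pcsk5. Bmpr1b entered that fit through wild type, the group where it is high. Its remaining knockout signals there were not well above background. Over all features, 89 called higher and 45 lower as reported, the counts were 184 and 101 blocked on slide, 4 and 1 with the replicate block, 3 and 0 with no filter, 136 higher with each probe alone, and 11 to 45 higher and 1 to 26 lower with 1 array left out. The cause of these changes was not tested. Normexp with an offset of 50 lowered the differences of dim probes, to 0.06 for Inha and 0.13 for Acvr1b. Within slide 2 the difference of Acvr2b was 0.07, against -0.08 as reported. Other scalings moved the median of all features by 0.015 at most. Signal over background limits Inhba, Acvr1c, Inha and Fst.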

Other observations

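The genes with a pattern most like that of Inhbb over the 6 arrays were Fam205a2, Gbp3, Hal, Zfp69 and Scpep1, taken by the smallest root mean square distance between log2 levels centred on each gene's own mean. The distances were 0.26, 0.34, 0.37, 0.50 and 0.51, and the correlations with Inhbb lay between 0.949 and 0.991. The 6 arrays share genotype and slide, and these genes differ between genotypes as Inhbb does, so the likeness is a description. Fam205a2 read 0.70, 0.11 and 0.15 in APJ knockout samples, against -2.24, -2.00 and -2.32 in wild-type samples. Hal, the histidine ammonia lyase, was well above background on all knockout arrays and on 0 of 3 wild-type arrays. It thus entered the fit through the knockout, the group where it is high. Its likeness to Inhbb rests in part on wild-type signals that are not well above background.

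By gene order on the chromosome, none of the 21 fitted genes among the 40 nearest protein-coding neighbours of Inhbb was called by limma, and 3 had an unadjusted p below 0.05. No neighbour of any other member except Fstl3 was called, with 20 to 32 fitted per member and 0 to 5 at an unadjusted p below 0.05. Among those of Fstl3 was Madcam1, an endothelial addressin, 9 genes away with a difference of -1.74. Over all features 0.367% were called higher and 0.186% lower by limma. An unadjusted p below 0.05 was found in 4.46% with a higher level and 3.57% with a lower one. Nothing is read from the counts of neighbours. Acvr2a and Acvr1c lie on chromosome 2, as does Aplnr, at 198 and 166 protein-coding genes from it.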
